A study of Mus musculus with 25 samples.

Results

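Gene expression in the cerebral cortex of 5 5xFAD mice given the lower of the study's doses of a compound labelled P was compared with that of 5 5xFAD mice given vehicle. The labels and the design text call P a derivative of a natural product and give neither its identity, its doses, the route and length of dosing, nor the age of the mice. Of the 54532 genes in the deposited table of FPKM values (reads scaled to gene length and library size), 25057 were at 0 in all 10 libraries. The 14948 genes with an FPKM of at least 0.5 in at least 5 of the 10 libraries were tested (27.4% of the table), and 12762 of them reached that level in every library. Just inside the threshold, the fifth highest value of Styx was 0.501 FPKM, and just outside it that of Krt73 was 0.4999 FPKM. Among the tested genes 3 passed through the vehicle libraries alone (Gm23841, Gm17168 and Gm2449) and 0 through the low P libraries alone. The whole study has 5 groups of 5 mice: wild type with vehicle, wild type with high P, and 5xFAD with vehicle, low P or high P.

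5xFAD mice carry mutant human transgenes, APP among them, under Thy1 promoter sequences, which drive them in neurons, so the model holds the amyloid side of Alzheimer's disease and no tau mutation. Amyloid plaques draw in microglia, which lower their resting-state genes and raise a programme of lysosomal, lipid-handling and phagocytic genes that depends on the receptor Trem2 and its adaptor Tyrobp, and nearby astrocytes raise intermediate filament and complement genes. A treatment that altered plaques or the response to them would be looked for in these genes. RNA from whole cortex mixes all cell types, so fewer cells of a type and less RNA per cell cannot be told apart.

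The libraries held 16029636 to 16561965 reads assigned to genes in the vehicle mice and 16577849 to 17605285 in the low P mice, with no overlap (two-sided exact permutation test, p = 0.00794, the smallest that 5 against 5 allows, 0.0238 after adjustment over 3 library measures). Thy1, whose sequences the transgenes share, averaged 458 ± 78.0 FPKM (SD, n = 5) with vehicle and 483 ± 123 with low P, against 155 ± 15.6 in wild-type vehicle mice, so all 10 mice carried the label's transgene signal. Mouse App did not differ beyond its spread (139 ± 10.5 and 136 ± 10.02 FPKM). Xist and Y-linked genes, not the labels, gave the sex of the mice, which was 3 males (replicates 1 to 3) and 2 females (replicates 4 and 5) in each group. Low P replicates 1 and 2 and vehicle replicate 5 correlated least with the other libraries (median r 0.950 to 0.953, others 0.962 to 0.969). Cortical neuron genes such as Slc17a7, the vesicular glutamate transporter, were high in every library, and markers of striatum were also present at levels that varied widely between mice, as described further on.

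No gene passed the test between low P and vehicle. The limma test on log2(FPKM + 0.5), with Benjamini-Hochberg adjustment over the 14948 genes, called 0 genes at adjusted p under 0.05 (0%), and the smallest adjusted p was 0.224. At an unadjusted p under 0.05 there were 419 genes (2.80%), 141 higher with low P (0.943%) and 278 lower (1.86%). That share is below the 0.05 that the threshold would pass on average if no gene differed. The 5 low P values lay entirely above the 5 vehicle values for 16 genes (0.107%) and entirely below them for 39 (0.261%). Where groups do not differ, 5 against 5 values separate fully with probability 0.00794, which is above the share of these genes. Most differences were small: 97.5% of genes lay within 0.5 of 0 on the log2 scale, the median was -0.01, and 56 genes had an absolute log2 difference of at least 1. At the median gene the 95% interval reached 0.29 to either side of the estimate. For 94.6% of genes the interval lay inside -1 to 1 at 5 mice per group. These intervals are per gene, without adjustment for the number of genes. They concern the mean over both sexes and do not bound the difference within a sex.

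The gene with the smallest p was Gm14303, a processed pseudogene of 171 bases, at 16.9 to 44.1 FPKM with vehicle and 8.01 to 12.95 with low P (log2 difference -1.30, SE 0.24, limma adjusted p = 0.224). Tmem258, a small subunit of the enzyme complex that transfers N-glycans to proteins, followed among protein-coding genes, at 4.61 to 7.02 FPKM with vehicle and 2.75 to 4.82 with low P (log2 difference -0.61, SE 0.13, adjusted p = 0.464). Both were singled out after their values were seen. The ranges of Tmem258 overlapped slightly, and those of the pseudogene did not.

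The 8 genes in each direction described next were those of smallest p among protein-coding genes with separate ranges and a mean of at least 1 FPKM. None was called. They are ranked by p and not by size, and selection by p makes their sizes too large on average. Among genes higher in mean with low P, Thnsl2, a threonine synthase-like protein (chromosome 6, 71128166 to 71144439, mm10), read 1.34, 0.836, 1.16, 1.27 and 1.09 FPKM in vehicle mice 1 to 5 and 1.51, 1.78, 1.56, 1.66 and 1.72 in low P mice 1 to 5. All 5 low P mice were above every vehicle mouse, and wild-type vehicle mice (1.28 to 1.51) spanned the gap between the groups. The log2 difference was 0.40 (95% interval 0.20 to 0.59, adjusted p = 1.00). Tnfrsf18, the co-stimulatory receptor GITR (chromosome 4, 156026164 to 156028895), read 0.714, 0.515, 0.802, 0.881 and 0.891 FPKM with vehicle and 1.30, 1.83, 1.31, 1.46 and 1.53 with low P. That is the widest difference of the 8 in this direction (log2 0.66, interval 0.10 to 1.22), in a gene near the lower end of detection that ran from 0.0398 to 1.65 FPKM in wild-type vehicle mice.

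Dph7, an enzyme of diphthamide synthesis on elongation factor 2, averaged 4.48 ± 0.750 FPKM with vehicle and 5.91 ± 0.300 with low P, and its vehicle mean was pulled down by replicate 4 at 3.16. Arl6ip1, which shapes tubules of the endoplasmic reticulum, had the highest level of the 8, at 99.3 to 119 FPKM with vehicle and 121 to 134 with low P (log2 difference 0.17, interval 0.02 to 0.31). Pms2, a DNA mismatch repair protein, averaged 1.74 ± 0.145 and 2.24 ± 0.282 FPKM. The other genes of this direction were Zfp623 (log2 difference 0.29), R3hcc1l (0.32) and Chic2 (0.21).

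Among genes lower in mean with low P, the widest difference of the 8 was that of Snrpe, a core protein of spliceosomal small nuclear ribonucleoproteins (chromosome 1, 133603871 to 133610291). It read 4.41, 4.57, 6.06, 6.25 and 8.22 FPKM with vehicle and 2.80, 1.83, 3.21, 2.79 and 3.61 with low P. Its log2 difference was -0.93 (interval -1.43 to -0.42, adjusted p = 1.00), and wild-type vehicle mice (4.55 to 6.38) were at the level of the vehicle mice.

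Csf3r, the receptor for granulocyte colony-stimulating factor (chromosome 4, 126024550 to 126044440), is carried by myeloid cells. It read 6.60, 6.95, 7.13, 5.64 and 5.67 FPKM with vehicle and 5.18, 4.53, 5.35, 5.06 and 3.89 with low P, while wild-type vehicle mice lay at 1.33 to 2.26. Its low P values thus stood below every 5xFAD vehicle mouse and far above every wild-type mouse (log2 difference -0.38, interval -0.60 to -0.16). Creg1, a lysosomal glycoprotein, averaged 18.3 ± 0.930 FPKM with vehicle and 15.6 ± 1.25 with low P (log2 difference -0.22), with wild type at 11.9 ± 0.732. Bag3, a co-chaperone of selective autophagy, averaged 5.21 ± 0.447 and 3.60 ± 0.640 FPKM (log2 difference -0.49), and wild-type mice (2.65 to 4.85) spanned the low P range. Rnd2, a small GTPase of migrating neurons, averaged 37.4 ± 1.65 and 29.9 ± 2.90 FPKM (log2 difference -0.32). The remaining genes of this direction were Med27, a Mediator subunit (log2 difference -0.34), Ciao1, of cytosolic iron-sulfur assembly (-0.23), and Lamc1, a laminin chain of basement membranes (-0.23).

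**Figure D1:**
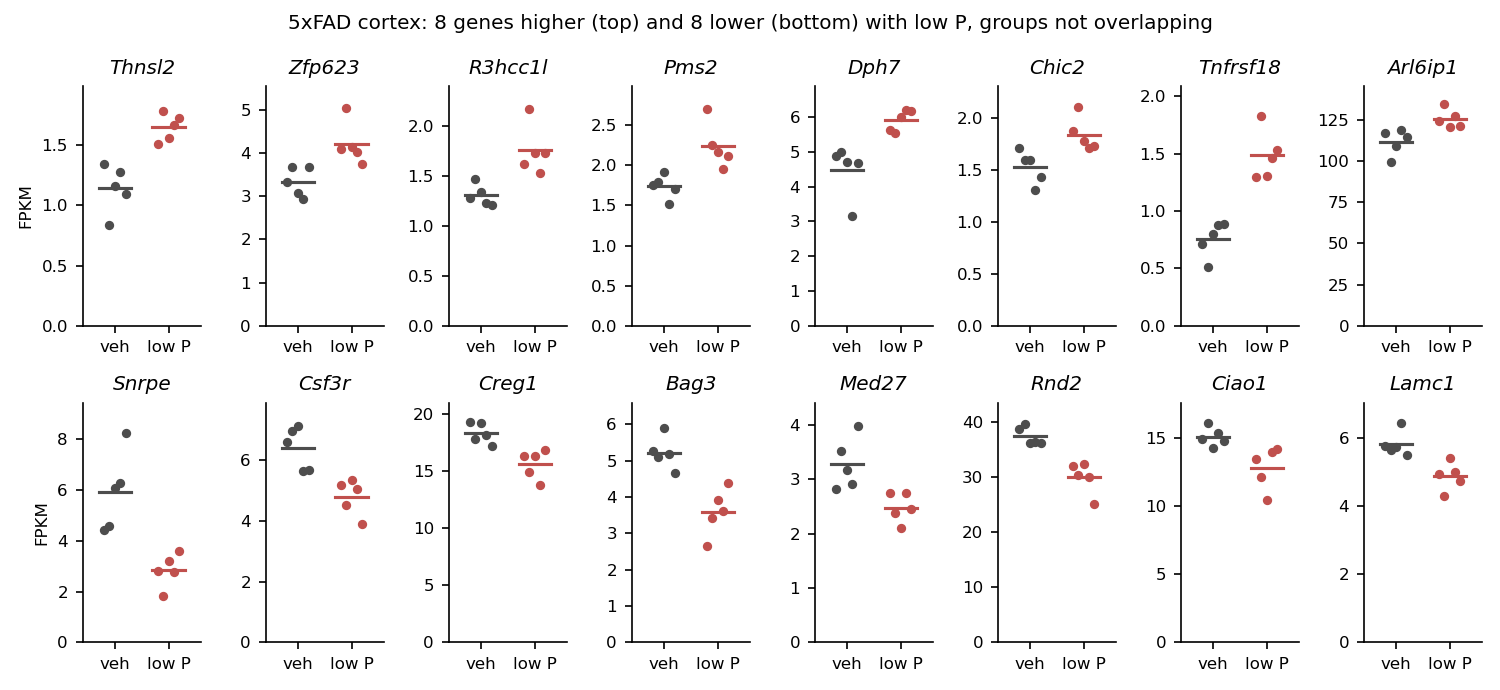
FPKM (y axis, from 0, own scale per gene) of the 16 named genes in each vehicle (grey) and low P (red) 5xFAD mouse, with points in replicate order and a line at the group mean. By the way they were chosen the ranges do not overlap in any panel, and in every panel the gap between the groups is narrower than the range of the wider group.

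Gene lists for cell types, glial states and pathways were then read by count and median beside the same over all tested genes, where 53.1% of log2 differences were below 0 and the median was -0.01. The 34 lists hold 609 distinct symbols, of which 557 were tested. No member of any list was called, and 22 members lower and 3 higher reached an unadjusted p under 0.05, against 1.86% and 0.943% of all tested genes. Medians were below 0 in 32 of the 34 lists. Members of a list were measured in the same mice and are not independent replicates. Counts of members lower or higher in mean are therefore descriptions and not tests, here and for each list below. Apart from striatum, the lowest medians were those of antigen presentation, plaque-associated microglia and myelin, while excitatory neuron and synapse lists lay at 0.

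**Figure D2:**
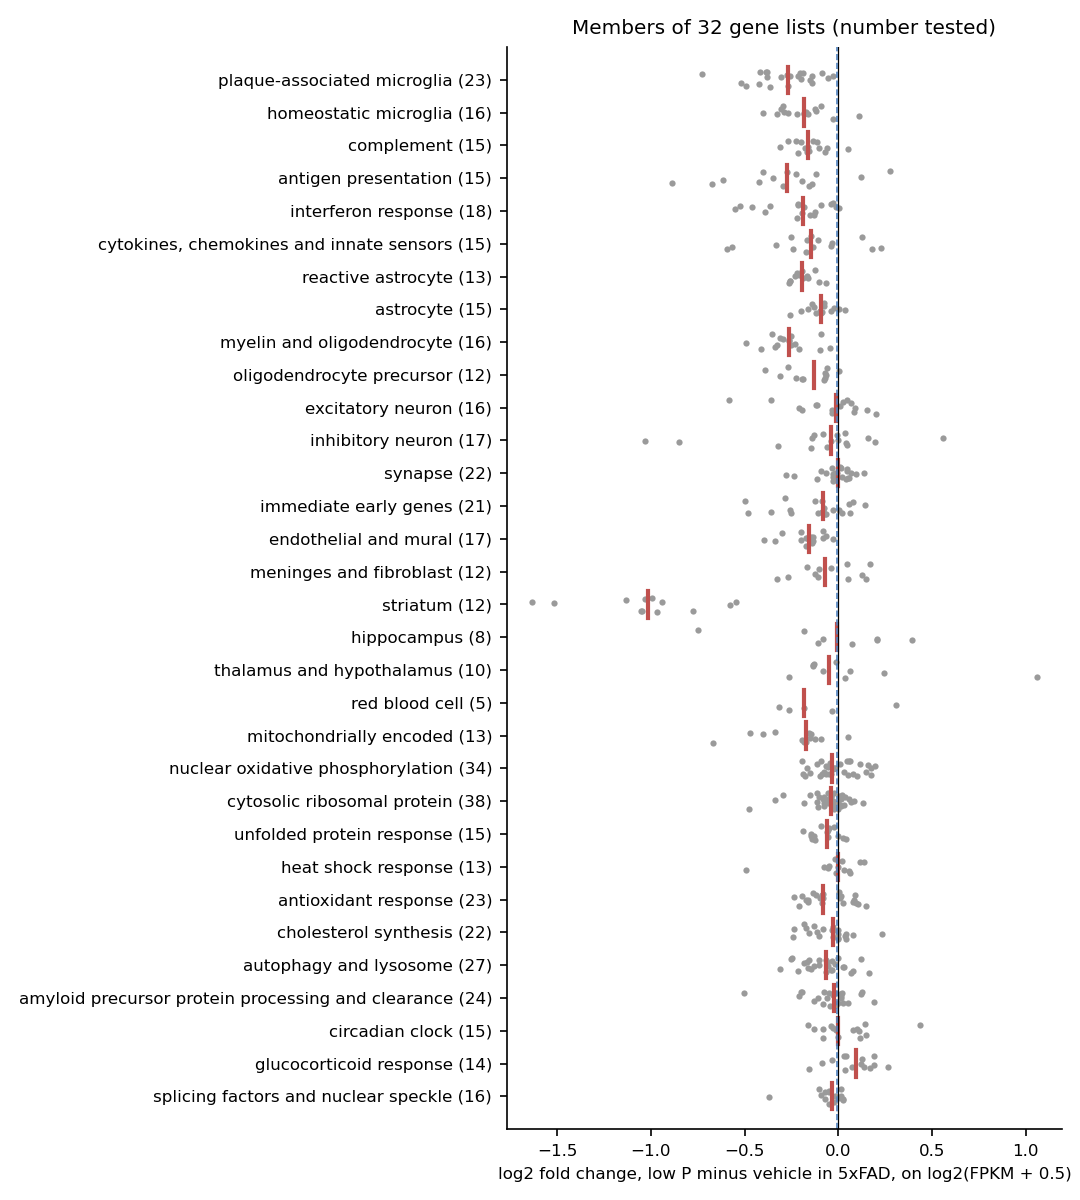
Each grey point is the log2 difference (x axis, low P minus vehicle, on log2(FPKM + 0.5)) of 1 tested member of a list, red bars are list medians, and the blue dashed line is the median of all tested genes. Points of the plaque-associated microglia, reactive astrocyte, myelin and endothelial lists lie left of 0, the synapse list is centred on 0, and the striatum list stands apart with a median of -1.01.

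All 23 plaque-associated microglial genes were lower in mean with low P, none of them called, with a median log2 difference of -0.27 (range -0.73 to -0.03). The same genes separated 5xFAD from wild-type vehicle mice by a median of 1.81, so the difference with low P was small beside the model's own. Both comparisons use the same 5xFAD vehicle mice and are not independent. Trem2, the lipid-sensing receptor of the plaque response (chromosome 17, 48346401 to 48354147), read 17.1, 15.5, 17.0, 12.9 and 10.9 FPKM with vehicle and 9.18, 11.4, 9.44, 12.2 and 13.5 with low P. The groups overlapped, since vehicle replicates 4 and 5 lay among the low P mice, and wild-type mice stood far below both at 1.59 to 2.90. Its log2 difference was -0.38 (interval -0.72 to -0.03, unadjusted p = 0.034, adjusted p = 1.00 by limma).

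Tyrobp, the signalling adaptor of Trem2, read 47.2, 32.3, 61.0, 31.9 and 33.6 FPKM with vehicle and 33.1, 42.3, 16.5, 32.0 and 31.3 with low P. Vehicle replicates 1 and 3 were the highest of the 10 mice and low P replicate 3 the lowest (log2 difference -0.42, interval -0.85 to 0.02). Cst7, cystatin F, an inhibitor of lysosomal cathepsins that resting microglia hardly express, read 67.4, 46.7, 78.2, 55.3 and 36.3 FPKM with vehicle and 39.7, 51.1, 23.1, 32.9 and 52.1 with low P. In wild-type vehicle mice Cst7 ran from 0 to 0.857 FPKM, so every 5xFAD mouse of either group was far above them (log2 difference with low P -0.52, interval -1.05 to 0.01).

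Ctsd, the lysosomal protease cathepsin D, read 295, 251, 319, 286 and 194 FPKM with vehicle and 189, 206, 219, 246 and 216 with low P. Apart from vehicle replicate 5, the vehicle mice were above the low P mice (log2 difference -0.30, interval -0.54 to -0.06). Further members at an unadjusted p under 0.05 included Cd9, a tetraspanin (42.1 ± 9.57 and 31.7 ± 2.98 FPKM), and Cd68, a lysosomal marker of phagocytes (35.9 ± 8.54 and 27.3 ± 3.85). For Ctsd, Cd9 and Cd68 the spread was narrower with low P than with vehicle, and the lowest vehicle value was replicate 5 in each. The summed level of the 23 genes was 774 to 1211 FPKM with vehicle and 786 to 886 with low P. In wild-type vehicle mice it was 340 to 426. By this sum vehicle replicate 5 lay below every low P mouse, and the other 5xFAD vehicle mice lay above every low P mouse. Without the 3 least correlated libraries the list's median was -0.37, and leaving out 1 library at a time it ran from -0.35 to -0.20.

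**Figure D3:**
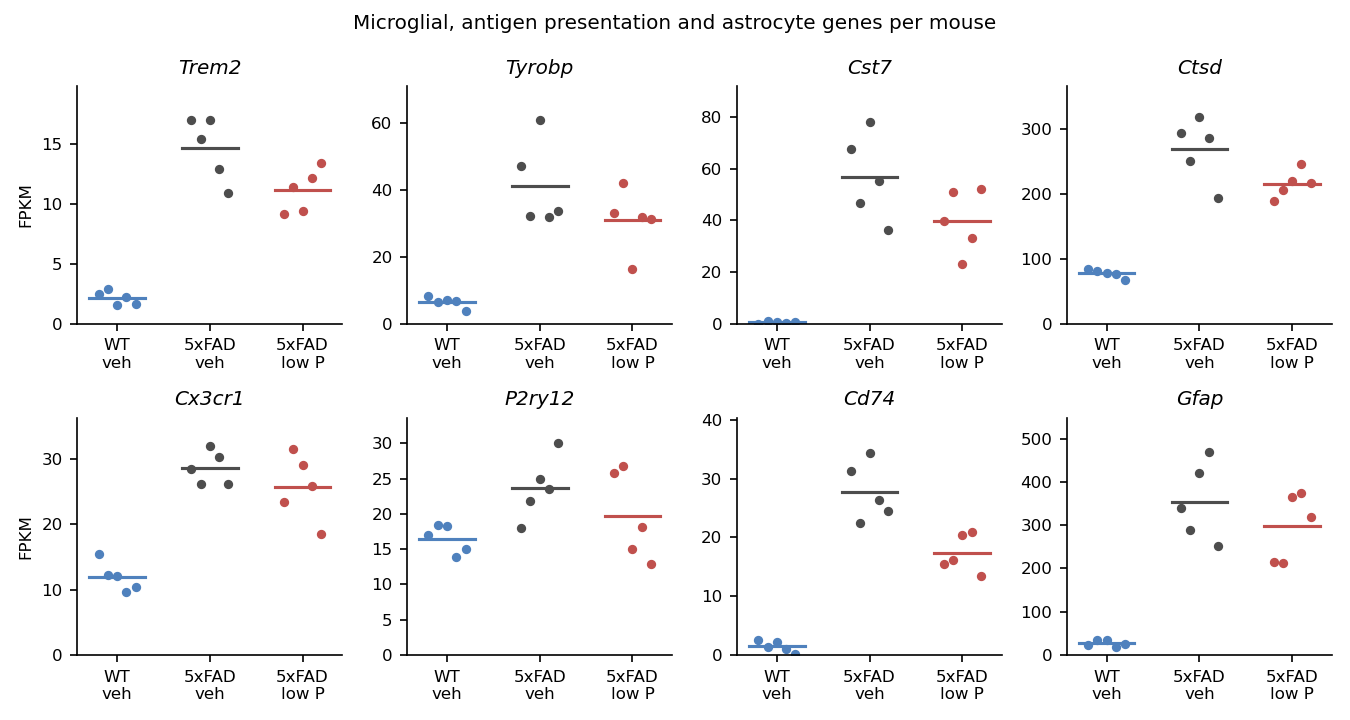
FPKM (y axis, from 0, own scale per gene) of 8 glial and antigen presentation genes in each wild-type vehicle (blue), 5xFAD vehicle (grey) and 5xFAD low P (red) mouse, with points in replicate order and lines at group means. Low P means lie below vehicle means in every panel, the 5xFAD groups overlap in all but Cd74, and wild-type mice lie below all 5xFAD mice for every gene but P2ry12.

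Homeostatic microglial genes were also lower in mean, in 15 of 16 cases, with a median of -0.18. They were higher in 5xFAD than in wild-type vehicle mice by a median of 0.65, so the difference with low P ran toward wild type. These 2 comparisons share the 5xFAD vehicle mice. Cx3cr1, the fractalkine receptor, averaged 28.5 ± 2.54 FPKM with vehicle and 25.7 ± 5.05 with low P, and P2ry12, the purinergic receptor of resting microglia, 23.7 ± 4.39 and 19.8 ± 6.26. Tmem119, a marker of resident microglia, averaged 10.9 ± 1.57 and 9.80 ± 3.46 FPKM. These 3 overlapped widely between the groups. Members at an unadjusted p under 0.05 were Selplg (chromosome 5, 113818536 to 113832644), the ligand of P-selectin, at 12.8 to 14.1 FPKM with vehicle and 8.56 to 12.9 with low P, Fcrls (26.7 ± 5.26 and 21.4 ± 3.44) and Hpgds, a prostaglandin D synthase (2.61 ± 0.397 and 2.11 ± 0.524). Resting-state and plaque-state genes therefore lay on the same side of 0.

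Antigen presentation genes were lower in mean in 13 of 15 cases, with a median of -0.28. Cd74, the invariant chain that escorts class II molecules, read 31.3, 22.5, 34.4, 26.3 and 24.4 FPKM with vehicle and 15.5, 16.1, 20.5, 20.9 and 13.4 with low P. These ranges did not overlap, and wild-type mice were at 0.215 to 2.51 FPKM. Its log2 difference was -0.67 (interval -1.47 to 0.12, unadjusted p = 0.094), with an error that the fit shares across all groups. H2-Ab1, a class II beta chain (chromosome 17, 34263209 to 34269418), likewise had separate ranges, at 5.99, 4.05, 5.23, 4.02 and 4.25 FPKM with vehicle and 1.39, 1.64, 3.61, 3.62 and 1.96 with low P. The difference was -0.89 (interval -1.60 to -0.17, unadjusted p = 0.017, adjusted p = 1.00). H2-Aa, the partner alpha chain, averaged 5.03 ± 1.10 and 3.23 ± 1.22 FPKM and overlapped. Of the class I side, B2m, the shared light chain, averaged 238 ± 37.3 and 196 ± 47.7 FPKM. Ctss, cathepsin S, which trims Cd74, was lower in mean by -0.42 (119 ± 19.7 and 90.4 ± 23.8 FPKM), and H2-DMa, which loads peptides, by -0.35.

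Interferon response genes were lower in mean in 17 of 18 cases (median -0.19). Ifitm3, Irf9 and Gbp3 reached an unadjusted p under 0.05, with log2 differences of -0.46, -0.37 and -0.55, while Ifit3 averaged 10.1 ± 1.68 and 10.6 ± 5.11 FPKM, with low P replicate 2 the highest of the 10 mice (18.8). Complement genes were lower in mean in 14 of 15 cases (median -0.16), none at an unadjusted p under 0.05. C1qa, the A chain of C1q, averaged 97.4 ± 27.3 and 86.2 ± 30.7 FPKM, and C4b, which has a near-identical copy and an uncertain level, 68.9 ± 17.5 and 56.1 ± 18.6. Among cytokines, chemokines and sensors, 12 of 15 were lower in mean (median -0.14). Ccl3, a chemokine of activated microglia, read 9.79, 9.06, 13.4, 5.60 and 9.78 FPKM with vehicle and 5.78, 10.9, 6.14, 4.10 and 5.02 with low P, so only low P replicate 2 was in the upper vehicle range (log2 difference -0.57). Ccl4, its neighbour and relative, differed by -0.59. Blood leukocyte markers were mostly below the filter (3 of 15 tested), and the summed level of the 15 was 8.14 to 20.02 FPKM with vehicle and 6.58 to 17.7 with low P.

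Reactive astrocyte genes were lower in mean in 13 of 13 tested cases (median -0.20). Gfap, the intermediate filament of reactive astrocytes (chromosome 11, 102887336 to 102900912), read 341, 288, 421, 469 and 253 FPKM with vehicle and 214, 213, 365, 375 and 318 with low P, against 17.9 to 34.8 in wild-type vehicle mice. Its log2 difference was -0.26 (interval -0.69 to 0.17) and the groups overlapped over most of their range. Serpina3n, a secreted protease inhibitor, averaged 71.8 ± 28.7 and 57.7 ± 17.7 FPKM, and Vim 23.2 ± 7.36 and 20.2 ± 6.39. General astrocyte genes were closer to 0 (median -0.09, 13 of 15 lower in mean): Slc1a2, the main glutamate transporter, averaged 243 ± 19.1 and 233 ± 40.7 FPKM.

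Myelin and oligodendrocyte genes were lower in mean in 16 of 16 cases (median -0.26), none at an unadjusted p under 0.05. Mbp, myelin basic protein, read 430, 344, 378, 231 and 176 FPKM with vehicle and 194, 330, 315, 154 and 295 with low P. The groups overlapped and low P replicate 4 was lowest, and the list's median, from -0.44 to -0.09 leaving out 1 library at a time, was nearest 0 without it. Precursor genes were lower in mean in 11 of 12 cases (median -0.13), with Pdgfra at 6.34 ± 1.45 and 6.04 ± 1.07 FPKM. Endothelial and mural genes were lower in mean in 17 of 17 cases (median -0.16), among them Cldn5, of the blood-brain barrier's tight junctions (26.9 ± 9.55 and 20.6 ± 8.22 FPKM).

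Neuronal lists were centred near 0. Excitatory neuron genes had a median of -0.01 (8 of 16 lower in mean), inhibitory neuron genes -0.04 (11 of 17) and synapse genes 0.00 (11 of 22). Slc17a7 averaged 225 ± 38.9 FPKM with vehicle and 261 ± 91.2 with low P, Snap25, of the vesicle fusion machinery, 326 ± 45.2 and 319 ± 48.9, and Dlg4, the postsynaptic scaffold PSD-95, 47.5 ± 4.61 and 47.0 ± 7.98. Cort, the neuropeptide cortistatin of a class of interneurons, was the neuronal member at an unadjusted p under 0.05 (3.83 ± 1.56 and 1.97 ± 1.04 FPKM, log2 difference -0.85). Immediate early genes had a median of -0.08, and Arc ran from 27.3 to 63.7 FPKM with vehicle and from 15.6 to 84.1 with low P.

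Genes of amyloid precursor processing and clearance had a median of -0.02 (15 of 24 lower in mean). Bace1, the beta-secretase, averaged 13.7 ± 1.11 and 14.9 ± 0.981 FPKM. Mme, the amyloid-degrading protease neprilysin, ran from 1.26 to 3.04 FPKM with vehicle and from 0.520 to 3.66 with low P. For Bace1 the 95% interval of the log2 difference was -0.04 to 0.29.

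Stress lists and lists of nuclear metabolic genes lay near 0. Medians were -0.06 for the unfolded protein response, 0.00 for heat shock, -0.08 for the antioxidant response, -0.03 for cholesterol synthesis, -0.06 for autophagy and lysosome, -0.03 for nuclear oxidative phosphorylation and -0.04 for cytosolic ribosomal proteins. The mitochondrially encoded subunits of the respiratory chain stood further off, with a median of -0.17 (12 of 13 lower in mean). It was 0.30 in males and -0.85 in females by the fit by sex described further on. By that fit the male and female medians were -0.20 and 0.13 for autophagy and lysosome and 0.07 and -0.21 for heat shock. They were -0.11 and 0.06 for the antioxidant response, 0.04 and -0.14 for cholesterol synthesis and -0.07 and 0.04 for nuclear oxidative phosphorylation. For ribosomal proteins they were 0.00 and -0.12, and for the unfolded protein response -0.02 and -0.04. Hmox1, heme oxygenase, averaged 4.58 ± 1.08 and 3.99 ± 1.22 FPKM, and Sqle, squalene epoxidase of cholesterol synthesis, 15.1 ± 0.858 and 15.9 ± 1.38. Sdha, of respiratory complex II, was among the 3 list members higher at an unadjusted p under 0.05 (74.3 ± 1.78 and 80.8 ± 6.02 FPKM), with the clock gene Ciart (4.22 ± 0.414 and 5.98 ± 1.27) and the hypothalamic peptide Avp. Avp was at 0.105 to 1.13 FPKM with vehicle and at 0.209 to 3.58 with low P, highest in replicates 2 and 4. The glucocorticoid response list had the highest median, 0.10 (3 of 14 lower in mean), and it was -0.03 without low P replicate 5, the mouse in which Sgk1 read 33.6 FPKM against 13.8 to 16.6 in the other low P mice.

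The striatum list was lower in mean in 12 of 12 cases with a median of -1.01, the largest shift of any list, and no member reached an unadjusted p under 0.05. Drd1, the dopamine receptor of direct-pathway striatal neurons, read 9.47, 24.8, 15.0, 28.3 and 29.5 FPKM with vehicle and 32.4, 30.1, 8.43, 4.98 and 1.90 with low P. Drd2, the receptor of the indirect pathway, read 14.1, 39.1, 23.6, 38.8 and 36.1 with vehicle and 34.5, 34.2, 11.5, 4.14 and 0.526 with low P. Low P replicates 4 and 5 were lowest for both receptors and low P replicates 1 and 2 were as high as the vehicle mice. The summed level of the 12 genes ran from 90.5 FPKM in low P replicate 5 to 809 in vehicle replicate 2, and in wild-type vehicle mice from 325 to 1352. The list's median was -0.52 without low P replicate 5. It was -1.88 without the 3 least correlated libraries, a set in which the proportions of the sexes differed between the groups.

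A further pair of library measures moved with the striatal genes. The slope of log2 expression on GC content, in log2 units per 10 percentage points of GC, averaged -0.0499 ± 0.164 with vehicle and -0.0544 ± 0.258 with low P (exact permutation p = 0.984). The share of reads from the 13 mitochondrially encoded protein genes averaged 4.84% ± 0.888 and 4.45% ± 1.32 (exact permutation p = 0.587). Across the 10 libraries the slope went with the mitochondrial share at r = -0.958 and with the mean striatal level at r = -0.746, and the mitochondrial share with the striatal level at r = 0.846. These are descriptions over libraries that also differ in sex and group. The group means of the slope and the share were thus close, while the mice within each group were far apart.

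**Figure D4:**
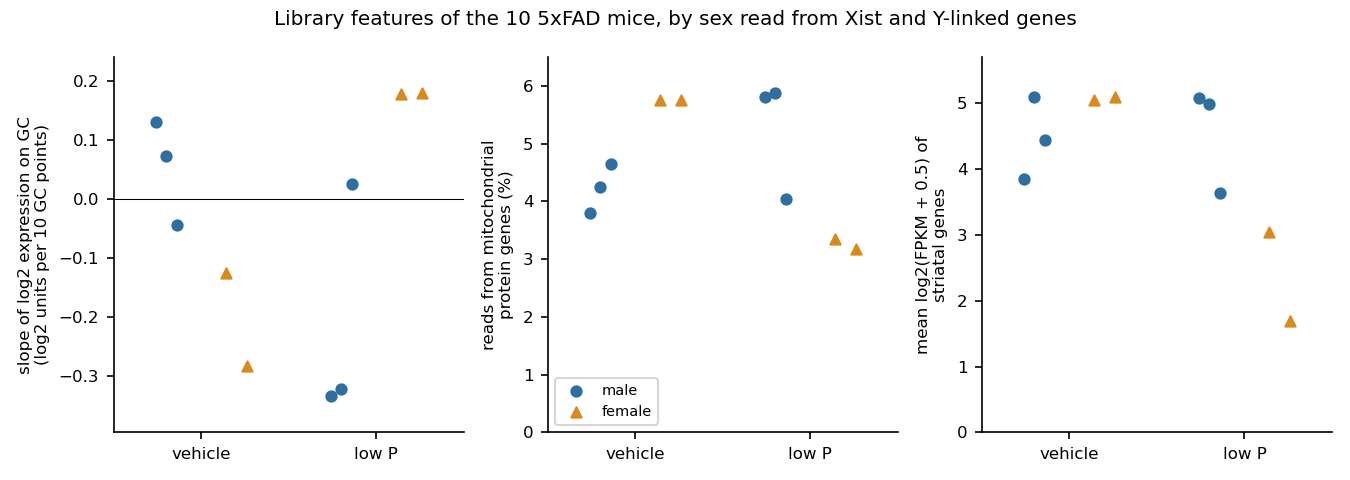
GC slope (left), percent of reads from mitochondrially encoded protein genes (middle) and mean log2(FPKM + 0.5) of 12 striatal genes (right) in each of the 10 mice, with circles for males and triangles for females. Females lie below males in GC slope with vehicle and above them with low P, and the reverse holds for the mitochondrial share.

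Within each sex the group means of GC slope and mitochondrial share lay further apart than over all mice, in opposite directions for males and females. The mean log2 level of the striatal genes was close between groups in males (4.46 with vehicle and 4.56 with low P) and far apart in females (5.07 and 2.37). GC slopes ran from -0.0444 to 0.130 in vehicle males and from -0.334 to 0.0263 in low P males, and from -0.284 to -0.125 in vehicle females against 0.179 in both low P females. Mitochondrial shares ran from 3.80% to 4.64% in vehicle males and from 4.05% to 5.88% in low P males. In females they were 5.76% with vehicle and 3.17% to 3.35% with low P. Summed striatal levels were 747 and 768 FPKM in the vehicle females and 253 and 90.5 in the low P females, while those of males overlapped (330 to 809 and 308 to 719). The sexes were then fitted apart, a choice made after these values were seen, with 3 against 3 males and 2 against 2 females.

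Fitted that way with limma, 17 genes were higher (0.114%) and 84 lower (0.562%) with low P in males at adjusted p under 0.05. In females 612 were higher (4.09%) and 461 lower (3.08%). The difference of the differences, males minus females, passed for 1264 genes higher (8.46%) and 1642 lower (11.0%), 19.4% of the tested genes in all. Of these 2906 genes 99.4% had opposite signs in the sexes, as did 72.7% of all tested genes. The share among the 2906 follows in part from their selection by a large difference between the sexes, where differences over all mice were small. Genes higher in that contrast had a median GC content of 43.5% and genes lower in it 56.9%, against 50.1% for all tested genes. Across genes, which are not independent replicates, the log2 difference went with GC content at Spearman's rho -0.598 in males and 0.599 in females, and at -0.0211 over all 10 mice. With a smooth GC trend removed from each library, 332 genes passed the contrast, 254 of them among the 2906. With the GC slope of each library as a term 59 passed, and with the striatal level as a term 140. Both terms were computed from the same expression values and move with sex and group, the striatal level in females. These counts therefore do not measure how much either term accounts for.

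Single libraries carried much of these counts. For males the count of 101 became 9 without vehicle replicate 1, 1 without vehicle replicate 2, 51 without low P replicate 1, 21 without low P replicate 2 and 2438 without low P replicate 3. For females the count of 1073 became 426 and 161 without vehicle replicates 4 and 5, 165 and 10 without low P replicates 4 and 5, and 2071 without low P replicate 3, a male that enters that contrast through the shared estimate of spread. For the contrast of the sexes the count became 1463 and 1320 without vehicle replicates 1 and 5, 1826 and 1259 without low P replicates 4 and 5, and 4992 without low P replicate 3. On the 10 libraries alone 0 genes passed in males, 3 in females and 417 in the contrast.

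**Figure D5:**
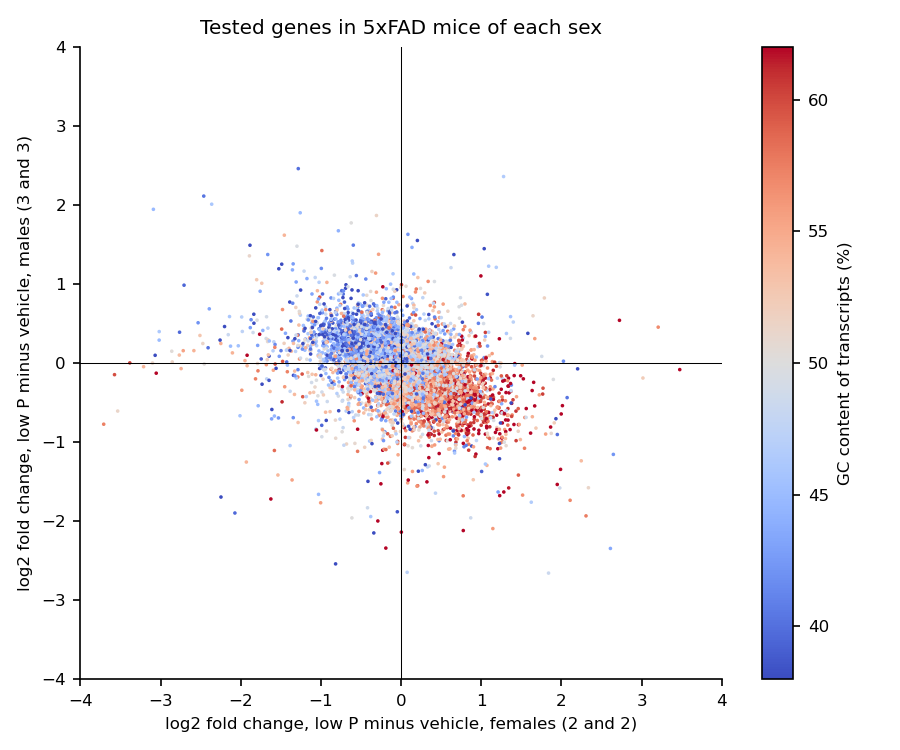
Log2 difference between low P and vehicle in females (x axis) and males (y axis) for each tested gene with a known GC content, coloured by that content from 38% or less (blue) to 62% or more (red), with 1 gene beyond the axes. GC-poor genes lie in the upper left quadrant and GC-rich genes in the lower right.

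Genes that passed the contrast of the sexes with and without GC correction included Pcsk1n, which encodes proSAAS, a neuronal inhibitor of prohormone convertase (chromosome X, 7919822 to 7924410). It read 435, 383 and 326 FPKM in vehicle males and 183, 151 and 247 in low P males, and 222 and 206 in vehicle females and 526 and 501 in low P females. The ranges were separate within each sex and ran opposite ways (males minus females -2.26, SE 0.28, limma adjusted p = 0.00039). Il17d, a cytokine of the interleukin 17 family, read 40.9, 34.8 and 31.8 FPKM in vehicle males, 13.7, 13.1 and 31.3 in low P males, 21.0 and 16.4 in vehicle females and 46.2 and 56.4 in low P females. Fezf2, a transcription factor of deep-layer projection neurons, went the same way as Pcsk1n (males minus females -2.23), as did Grp (-2.70), Psrc1 (-2.32) and Vps37d (-2.21).

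In the opposite direction, mt-Nd3, a mitochondrially encoded subunit of respiratory complex I, read 35.3, 44.0 and 52.2 FPKM in vehicle males and 96.5, 105 and 55.6 in low P males. In females it read 125 and 81.4 with vehicle and 44.7 and 39.5 with low P (males minus females 2.18, SE 0.30, adjusted p = 0.00056). The ribosomal protein genes Rps27 (2.86) and Rps27rt (4.37) have near-identical copies and uncertain levels for that reason. Htr1b, a serotonin receptor (2.38), Pde7b, a phosphodiesterase (2.25), and Epyc (2.66) completed the 6 named in that direction, all chosen after their values were seen. Of the glial lists, the plaque-associated microglia had a median of -0.38 in males (19 of 23 lower in mean) and -0.11 in females (18 of 23), and 1 of 23 members passed the contrast, against 19.4% of all tested genes. Trem2 itself differed by -0.70 in males and 0.11 in females. It did not pass the contrast (limma adjusted p = 0.057), nor the test in males (0.074) or in females (0.80). The reactive astrocyte list had medians of -0.39 in males (11 of 13 lower in mean) and 0.06 in females (5 of 13), and the cytokine, chemokine and sensor list -0.39 (11 of 15) and 0.07 (7 of 15). The medians of these 3 lists were lower in males than in females, where those of the astrocyte and cytokine lists were above 0. That of the homeostatic list was lower in females (-0.07 in males and -0.34 in females). The complement list had medians of -0.22 in males (10 of 15 lower in mean) and -0.10 in females (9 of 15). Of its members 6 of 15 passed the contrast, against 19.4% of all tested genes. Medians were -0.24 in males (15 of 18) and -0.06 in females (10 of 18) for interferon response. For antigen presentation they were -0.37 (15 of 15) and -0.10 (10 of 15). These list differences between the sexes were not tested. C1qa differed between the sexes by -1.51 (SE 0.35, adjusted p = 0.0092), with -0.80 in males and 0.71 in females. With GC correction C1qa did not pass (-0.74, limma adjusted p = 0.185). The striatum list had medians of 0.13 in males and -2.81 in females, with 8 of 12 members passing the contrast, again beside 19.4% of all tested genes. The excitatory neuron list, centred near 0 over all mice, had medians of -0.26 in males (12 of 16 lower in mean) and 0.53 in females (6 of 16), and 6 of 16 members passed the contrast. GC slope, mitochondrial share and, in females, striatal level move with the combination of sex and group in these mice, so their parts in these values cannot be told apart.

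The higher dose was compared at the same tissue and genotype. High P minus low P gave 0 genes at adjusted p under 0.05 (0%), with a smallest adjusted p of 0.129, and high P minus vehicle gave 0 as well. Low P and high P share their vehicle mice, so their list medians are given side by side only. They were -0.27 and -0.24 for plaque-associated microglia, -0.18 and -0.27 for homeostatic microglia, -0.28 and -0.19 for antigen presentation, -0.20 and -0.18 for reactive astrocytes, -0.26 and -0.12 for myelin and -1.01 and -1.74 for striatum. The 16 genes named by separate ranges are likewise given side by side. Those higher in mean with low P differed from vehicle by 0.40 with low P and 0.38 with high P for Thnsl2, 0.38 and 0.35 for Dph7, 0.66 and 0.24 for Tnfrsf18, 0.29 and 0.14 for Pms2, 0.21 and 0.07 for Chic2, 0.29 and 0.05 for Zfp623, 0.17 and 0.01 for Arl6ip1 and 0.32 and -0.06 for R3hcc1l. Those lower in mean differed by -0.93 and -0.70 for Snrpe, -0.38 and -0.32 for Csf3r, -0.32 and -0.26 for Rnd2, -0.49 and -0.17 for Bag3, -0.23 and -0.15 for Ciao1, -0.23 and -0.14 for Lamc1, -0.34 and -0.05 for Med27 and -0.22 and -0.02 for Creg1. All 16 high P values were nearer 0 than the low P values by which the genes were chosen.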

How the data were processed

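Poly(A) RNA from the cortex of 25 mice, 5 per group, was sequenced with a strand-specific kit, per the labels' protocols. The submitters' processing notes name HISAT2 and mm10. The sources used here name neither the counting program nor its annotation. The deposited table holds FPKM per gene, made by the authors. FPKM times gene length gave whole multiples of 1 step per library for 100% of values above 0 (tolerance 0.01 reads), from which the reads per library were taken. No columns of other series were present.

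The test was limma 3.58.1 (R 4.3.3, moderated variances with an intensity trend) on log2(FPKM + 0.5), fitted to 25 libraries with 1 mean per group (20 residual degrees of freedom). The fit by sex used 1 mean per group and sex on the same 25 libraries. A fold change on this scale understates that of genes with low levels. Library values were compared by exact permutation (scipy 1.17.1). GC content came from GENCODE M21 transcripts (99.9% of tested genes), of the same build as the files' coordinates. Named genes were App and Thy1, 8 genes per direction by unadjusted p (no overlap, mean at least 1 FPKM, no unnamed models), and the first 3 symbols of each list where tested. Those named by unadjusted p within a list, by the contrast of the sexes or as smallest p overall were chosen after their values were seen. A few genes are not reported here. The fit was tested on simulated data. The genes and lists were chosen with earlier results of these data known. Alternatives changed the pseudocount, filter, scaling, libraries, weights and terms. No 2 libraries matched within sampling noise (smallest chi-square 7.70 per gene).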

Additional observations from a re-analysis of the deposited data

Results flagged for a closer look

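In 15 of 214 groups of 5 mice looked at (107 named genes, vehicle and low P), 1 mouse lay far from the others by Dixon's criterion, which chance alone meets in about 1 in 20 groups. In the vehicle group, replicate 4 was apart for Dph7 (3.16 FPKM, others 4.67 to 5.00), Lamc1 (6.45), Sst (103), Xbp1 (33.0) and Srsf5 (13.3, others 30.4 to 32.8). Vehicle replicate 5 was apart for Pdgfra (8.90 FPKM), Hspa1a (2.67) and Clk1 (12.2). Vehicle replicate 3 was highest for Prox1 (4.64 FPKM). In the low P group, replicate 1 was apart for Pdgfra (7.92 FPKM), Lum (1.40) and Rplp0 (85.1), replicate 4 for Egr1 (32.3, others 62.2 to 73.9), and replicate 5 for Hsph1 (28.9) and Sgk1 (33.6).

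The difference between low P and vehicle differed between males and females for 2906 genes, 19.4% of those tested. Of the 107 named genes chosen for other reasons 19 were among them (17.8%), a share near that of all tested genes. Males minus females was below 0, on the log2 scale, for C1qa (-1.51, limma adjusted p = 0.0092), Dbp (-1.28), Sst (-1.14), Hspa1a (-1.13), Syn1 (-0.70), Thy1 (-0.67), Sqstm1 (-0.61), Dlg4 (-0.53) and Cox5a (-0.44). It was above 0 for Drd1 (3.42), mt-Cytb (1.21), mt-Nd1 (1.12), mt-Co1 (1.08), Aqp4 (0.98), Hspa5 (0.73), Gad1 (0.72), Slc1a2 (0.62), Hsph1 (0.58) and Rps6 (0.41). Their adjusted p-values ran from 0.0019 for mt-Co1 to 0.0496 for Rps6. With a GC trend removed from each library, 2 of the 19 passed (Cox5a and Rps6).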

How the results depend on the processing

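All 25 alternatives to the comparison of low P with vehicle called 0 genes higher, and all but the unfiltered fit called 0 lower. That fit called 2, Mir17hg and Gm26637 (adjusted p = 0.0349), both too low to pass the filter. Genes at an unadjusted p under 0.05 (419 as reported) numbered 1157 with no filter, 239 on the 10 libraries alone, 990 with array weights, 649 with GC correction, 637 with a striatal term, 765 with a GC slope term, 1472 without the 3 least correlated libraries, and 340 to 708 leaving out 1 library at a time (643, 635 and 708 without low P replicates 1, 2 and 3). Quantile normalisation gave 226 higher and 211 lower and GC correction 296 and 353, against 141 and 278. With replicate numbers as a block 207 genes had an unadjusted p under 0.05. The numbers did not pair the mice (correlations of deviations -0.457 to 0.142). The block called 0 genes in males, in females and in the contrast of the sexes, with and without GC correction. Genes called in males (101) numbered 0 on the 10 libraries alone, 196 with scaling by total reads, 285 with array weights, 6 with GC correction, 168 with a striatal term, 9 with a GC slope term and 1 to 2438 leaving out libraries. In females (1073) they numbered 568 with no filter, 3 on 10 libraries, 563 with array weights, 112 with GC correction, 0 with a striatal term, 4 with a GC slope term and 10 to 2071 leaving out libraries. In the contrast (2906) they numbered 417 on 10 libraries, 332 with GC correction, 140 with a striatal term, 59 with a GC slope term and 1259 to 4992 leaving out libraries. Terms for GC slope and striatum, the fits by sex and the set without 3 libraries were added after seeing the data. That set left out low P replicates 1 and 2, both male, and vehicle replicate 5, a female. Their GC slopes were the lowest of the 10 libraries (-0.334, -0.323 and -0.284). In that set group therefore went with both sex and GC slope. Of 32 list medians 17 kept their sign in every setting, and 4 recomputed medians moved beyond 1 SD while 796 did not. The cause of these changes was not tested.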
